A study of Mus musculus with 6 samples.

Results

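The 10 genes described here encode the subunits of the AMPA and NMDA classes of ionotropic glutamate receptor. They are the AMPA receptor subunit genes *Gria1*, *Gria2*, *Gria3* and *Gria4*, the obligatory NMDA receptor subunit gene *Grin1*, the 4 GluN2 subunit genes *Grin2a*, *Grin2b*, *Grin2c* and *Grin2d*, and the GluN3 subunit gene *Grin3a*. They were taken by symbol, as members of these receptor classes, from a count table of 31169 genes. RNA was from whole retina of 2-month-old male C57BL/6 mice. Injected eyes received 1 μL in the anterior chamber at 1 month of age, either of saline (3 libraries) or of 15 μm microbeads (3 libraries), and retinas were collected 4 weeks later. The study's own text gives another volume and another number of retinas, and the labels were followed here. Microbeads obstruct the outflow of aqueous humor and raise intraocular pressure (IOP), so that the comparison asks how mRNA levels differ between retinas with and without microbead-induced ocular hypertension. No non-injected retina was among the libraries, and the injection itself is shared by both groups. The labels do not say whether libraries of a group came from different animals, so p-values measure the spread between these libraries.

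AMPA receptors carry the fast component of excitatory transmission, and NMDA receptors, which also need glycine or D-serine as a co-agonist, carry a slower component that is blocked by magnesium at rest. In retina, photoreceptors and bipolar cells release glutamate. OFF bipolar and horizontal cells receive it in the outer retina through AMPA and kainate receptors, whereas ON bipolar cells use a metabotropic receptor. In the inner retina, amacrine cells and retinal ganglion cells (RGCs) carry AMPA and NMDA receptors. Each receptor is a tetramer. An AMPA receptor that contains edited GluA2, the product of *Gria2*, admits little calcium, and the GluN2 subunit sets the kinetics and magnesium block of an NMDA receptor, with GluN2D giving the slowest decay and a weaker block than GluN2A or GluN2B.

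Calcium entry through these receptors depends on a single residue of the pore, so the coding sequence around that residue is shown for the AMPA receptor genes and for *Grin1* and *Grin2d*. The sequences are coding-strand reference bases from GENCODE transcripts on GRCm38, 5′ to 3′, and capitals mark the codon of the pore residue, called the Q/R site in AMPA receptors and the N site in NMDA receptors.
Gria1: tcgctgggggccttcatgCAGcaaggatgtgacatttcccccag
Gria2: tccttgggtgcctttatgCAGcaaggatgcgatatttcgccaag
Gria3: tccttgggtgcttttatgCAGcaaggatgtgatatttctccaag
Gria4: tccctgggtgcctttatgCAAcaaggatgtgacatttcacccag
Grin1: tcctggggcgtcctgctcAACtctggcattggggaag
Grin2d: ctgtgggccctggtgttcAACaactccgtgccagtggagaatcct
The genomic codon is a glutamine codon in all 4 AMPA receptor genes, CAG in 3 of them and CAA in *Gria4*, and an asparagine codon, AAC, in *Grin1* and *Grin2d*. The *Gria2* codon lies at chr3:80706911-80706913 on the minus strand, in exon 11 of 16. In *Gria2* mRNA this codon is edited from adenosine to inosine and is then read as arginine. Gene-level counts do not measure editing, so the values below are total mRNA of each gene. The codon lies at chr2:25297386-25297388 (minus strand, exon 13 of 20) in *Grin1* and at chr7:45854393-45854395 (minus strand, exon 8 of 12) in *Grin2d*.

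Libraries of the 2 groups differed in ways other than the injection. Totals were 36085737 to 46481382 counts in saline and 13574949 to 19834366 in microbead libraries, a ratio of medians of 2.40. Mitochondrially encoded genes took 3.19% to 3.57% of counts in saline and 8.90% to 10.6% in microbead libraries. All saline libraries carry one library-name series in the labels and all microbead libraries another, so series and injection cannot be told apart. Among summed cell type markers, the horizontal cell sum (120 ± 26.5 CPM in saline and 73.1 ± 19.5 CPM in microbead, SD, n = 3 each) and the endothelial sum (233 ± 40.0 and 128 ± 23.8 CPM) did not overlap between groups, and 9 other sums, those of RGCs, amacrine, bipolar and Müller cells included, overlapped. CPM are counts per 1000000 of the scaled library size. Most of the horizontal cell sum was *Calb1* (94.7 ± 23.3 CPM in saline and 61.8 ± 21.0 CPM in microbead), whose own groups overlapped. The other horizontal cell markers, *Lhx1*, *Onecut1* and *Onecut2*, also had lower means in microbead libraries. An edgeR adjusted p under 0.05 was reached by *Onecut2* (log2 fold change -1.36, edgeR adjusted p = 0.0335) and by 3 of 5 endothelial markers, all lower. Of all genes tested, 12.8% reached it. Markers of retinal cells were present in every library, the summed bipolar cell markers at 1237 to 1701 CPM and the summed Müller glia markers at 2865 to 6235 CPM. In whole retina, fewer cells of a type and less RNA per cell cannot be told apart.

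All 10 subunits passed the filter on low counts, with 52 to 6321 counts per library. None passed the threshold of an adjusted p-value under 0.05 in edgeR's quasi-likelihood test, while 12.8% of the 17707 genes tested did, 6.46% higher and 6.31% lower in microbead libraries. At an unadjusted p-value under 0.05, 2 subunits passed, *Gria2* (higher in microbead) and *Grin2b* (lower), beside 31.4% of all genes. The log2 fold change was above 0 for 6 subunits and below 0 for 4, with a median of 0.24 beside -0.03 over all genes tested. The groups did not overlap for 4 subunits, *Gria2*, *Gria3* and *Grin2d* higher and *Gria1* lower, beside 37.8% of all genes (18.8% higher and 18.9% lower). The shares of subunits past either p-value threshold were below those of all genes, and the share without overlap, 4 of 10, was close to that of all genes. Subunits passed under 3 alternatives: 3 of 10 beside 11.9% of all genes with no filter, 2 of 10 beside 15.3% with an offset for GC content and length, and 2 of 10 beside 15.1% without the first saline replicate. DESeq2 called none of the 10, beside 17.9% of all genes, and limma-voom called none, beside 12.5%.

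**Figure D1:**
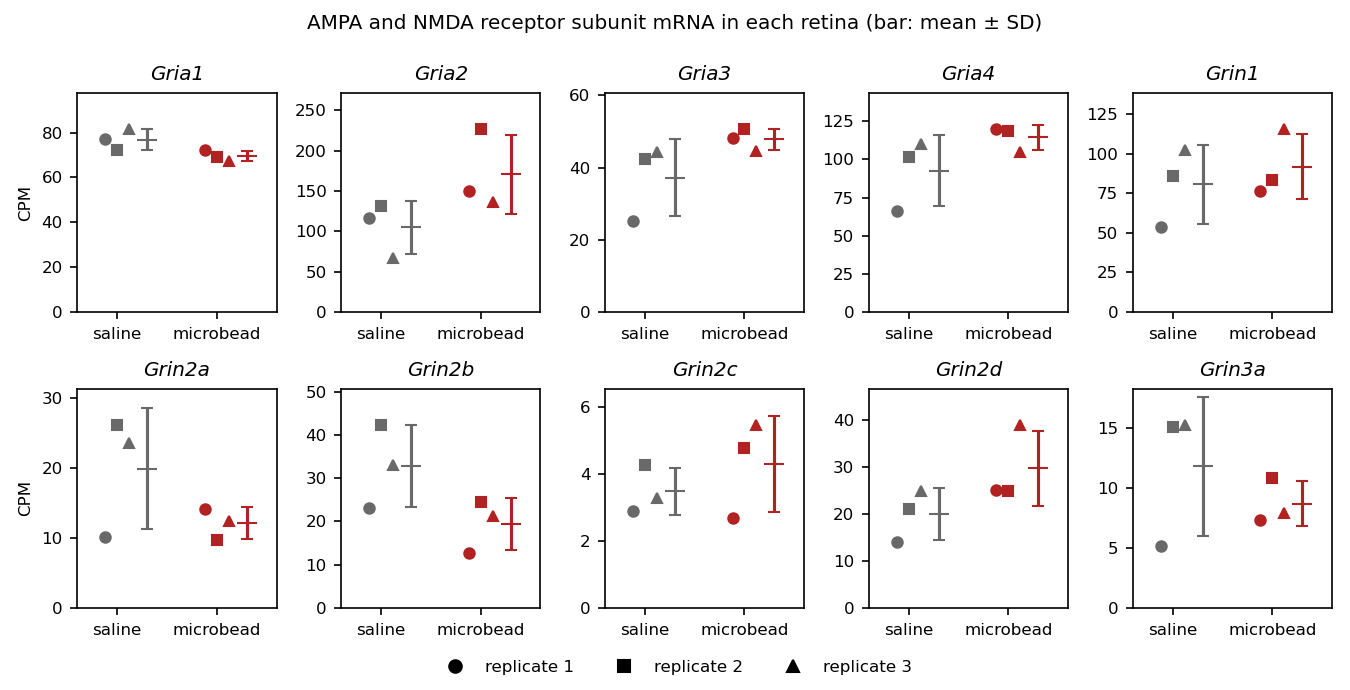
CPM of the 10 receptor subunits in each of the 3 saline (grey) and 3 microbead (red) libraries, each panel on its own linear axis from 0. Symbols are libraries by replicate number and bars are the mean ± SD (n = 3). For *Gria1*, *Gria2*, *Gria3* and *Grin2d* the groups do not overlap, and the first saline replicate is the lowest saline library for 8 of the 10 genes.

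*Gria2* encodes the subunit that limits calcium entry. It was at 116, 131 and 67.4 CPM in the saline libraries and at 150, 226 and 136 CPM in the microbead libraries. Every microbead library lay above every saline library, with the third saline replicate far below the other two saline libraries and the second microbead replicate far above the other two of its group. The log2 fold change was 0.70 ± 0.28 (SE, 95% interval 0.07 to 1.33, n = 3 each), with an edgeR adjusted p of 0.122. This is a mean difference of 62.7% that did not pass the threshold over all genes. Scaled by total counts alone, the 2 groups overlapped. With an offset that corrects for GC content and the length of the longest annotated transcript, the log2 fold change was 0.95 and the edgeR adjusted p was 0.0122. It was 0.46 without the third saline replicate (edgeR adjusted p = 0.251) and 0.47 without the second microbead replicate (edgeR adjusted p = 0.314). *Gria2* has a GC fraction of 0.368, the lowest of the 10 genes.

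*Gria1* encodes the AMPA receptor subunit GluA1. Saline libraries were at 76.9, 72.3 and 81.4 CPM and microbead libraries at 72.0, 69.0 and 67.5 CPM. Each group varied little and the lowest saline and highest microbead library nearly met, which makes *Gria1* the most evenly measured of the 10 subunits. The log2 fold change was -0.14 ± 0.15 (95% interval -0.49 to 0.20), with an edgeR adjusted p of 0.555. The groups overlapped under RLE and upper-quartile scaling, and the log2 fold change was 0.0038 with the GC and length offset, so no direction is given for this gene.

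*Gria3* and *Gria4*, which encode the other two AMPA receptor subunits, differed less than *Gria2*. *Gria3* was at 25.1, 42.2 and 44.3 CPM in saline and 48.1, 50.5 and 44.7 CPM in microbead libraries. The groups were separated by the gap between their nearest libraries alone, 44.3 against 44.7 CPM. *Gria4* was at 66.1, 101 and 110 CPM in saline and 120, 119 and 105 CPM in microbead libraries, and the groups overlapped. In both genes the first saline replicate was the low library. Log2 fold changes were 0.36 ± 0.23 for *Gria3* (edgeR adjusted p = 0.308) and 0.31 ± 0.21 for *Gria4* (edgeR adjusted p = 0.348), and without the first saline replicate they were 0.14 and 0.11.

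*Grin1* encodes GluN1, without which no NMDA receptor forms. It was at 53.5, 86.1 and 102 CPM in saline and at 76.4, 83.6 and 115 CPM in microbead libraries. Both groups covered much the same range above the first saline replicate. The log2 fold change was 0.19 ± 0.26 (95% interval -0.39 to 0.77, edgeR adjusted p = 0.656). It was -0.04 without the first saline replicate and -0.02 without the third microbead replicate, so that the direction rested on single libraries.

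*Grin2b* and *Grin2a* encode GluN2B and GluN2A, the GluN2 subunits with strong magnesium block. *Grin2b* was at 23.1, 42.2 and 33.1 CPM in saline and at 12.6, 24.4 and 21.2 CPM in microbead libraries. Of the microbead libraries only the second reached above the first saline replicate, which was the lowest of its group. The log2 fold change of *Grin2b* was -0.76 ± 0.29 (95% interval -1.42 to -0.11), with an edgeR adjusted p of 0.110. *Grin2a* was at 10.1, 26.0 and 23.5 CPM in saline and at 14.2, 9.75 and 12.4 CPM in microbead libraries, and only the first saline replicate fell within the microbead range. Its log2 fold change was -0.71 ± 0.34 (95% interval -1.47 to 0.05), with an edgeR adjusted p of 0.182. Without the first saline replicate both genes passed the threshold, *Grin2a* at a log2 fold change of -1.03 (edgeR adjusted p = 0.0201) and *Grin2b* at -0.96 (edgeR adjusted p = 0.0440). The *Grin2a* value was -0.47 without the second saline replicate (edgeR adjusted p = 0.474) and -0.41 with the GC and length offset (edgeR adjusted p = 0.480). On leaving out each library the *Grin2b* value ranged from -0.96 to -0.53, the smallest without the first microbead replicate. A share of 10.7% of the 100-base stretches of *Grin2a* transcripts also occurs in the pseudogene *Gm7328*, which had at most 2 counts in any library. How reads that fit both genes were counted is not given in the sources used here.

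*Grin2d* encodes GluN2D. It was at 14.02, 21.0 and 24.88 CPM in saline and at 25.1, 24.91 and 38.8 CPM in microbead libraries. The groups did not overlap, but the highest saline and the lowest microbead library were nearly equal and the third microbead replicate stood above the rest. The log2 fold change was 0.57 ± 0.26 (95% interval -0.03 to 1.16), with an edgeR adjusted p of 0.176. With the GC and length offset it was 1.19 and the edgeR adjusted p was 0.00903, and it was 0.36 without the first saline and 0.31 without the third microbead replicate. *Grin2d* has a GC fraction of 0.650, the highest of the 10 genes, and its exons overlap an opposite-strand gene, *Gm45441*, over 643 bases.

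*Grin2c* (GluN2C) and *Grin3a* (GluN3A, a glycine-binding subunit) were the least abundant. *Grin2c* was at 2.90, 4.27 and 3.28 CPM in saline and 2.68, 4.77 and 5.46 CPM in microbead libraries, a log2 fold change of 0.30 ± 0.36 (edgeR adjusted p = 0.612). *Grin3a* was at 5.15, 15.1 and 15.3 CPM in saline and 7.31, 10.8 and 7.93 CPM in microbead libraries, a log2 fold change of -0.45 ± 0.39 (edgeR adjusted p = 0.466). Both pairs of groups overlapped. On leaving out a library the value ranged from 0.08 (without the third microbead replicate) to 0.55 (without the first) for *Grin2c*, which was at 0.60 with the GC and length offset. For *Grin3a* it ranged from -0.81 (without the first saline replicate, edgeR adjusted p = 0.0584) to -0.23 (without the third). The *Grin2c* interval, -0.51 to 1.11, and the *Grin3a* interval, -1.33 to 0.43, include changes of 2-fold in one direction, which were not resolved at this depth and number of libraries.

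**Figure D2:**
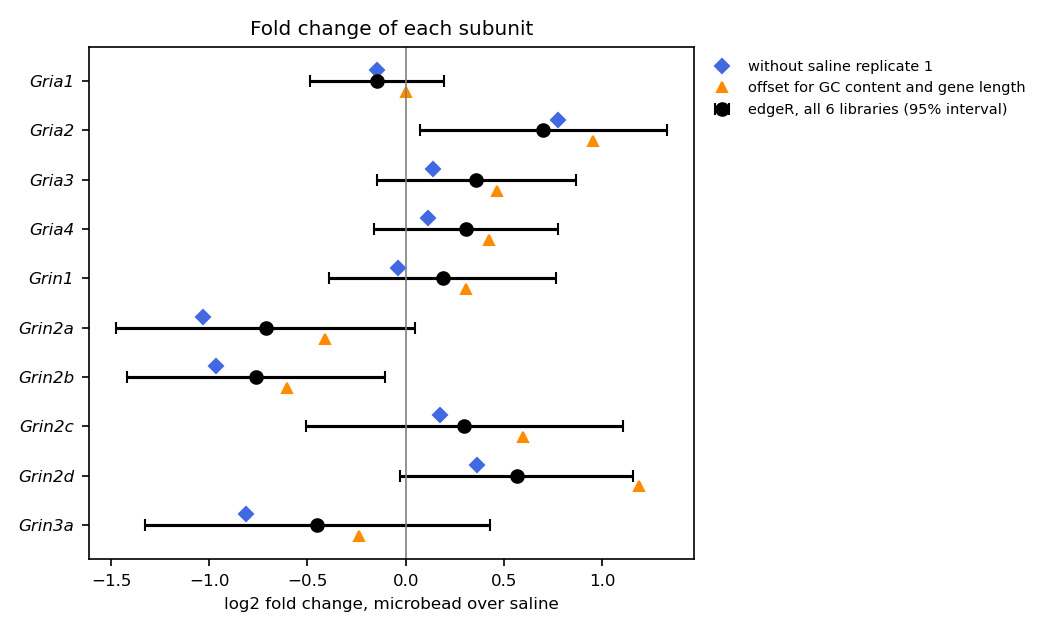
Log2 fold change of each subunit, microbead over saline (black, 95% interval, edgeR, n = 3 each), with the value without the first saline replicate (blue diamonds) and with the GC and length offset (orange triangles). The interval leaves out 0 for *Gria2* and *Grin2b*, and the alternatives move *Grin2a* to -1.03 and *Grin2d* to 1.19.

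The first saline replicate was the lowest of all 6 libraries for 5 subunits and the lowest saline library for 8, the exceptions being *Gria1* and *Gria2*. In the same library the summed RGC markers were at 371 CPM, beside 1072 and 1376 CPM in the other saline libraries and 909 to 1244 CPM in microbead libraries. The RGC marker *Rbpms*, an RNA-binding protein, was at 8.55 CPM there and at 31.8 to 50.2 CPM in all other libraries. The summed amacrine markers were at 595 CPM, beside 925 and 1081 CPM in saline and 660 to 691 CPM in microbead libraries. Other sums set this library apart too. It was the lowest saline library for Müller glia (2865 CPM, beside 4144 and 6235 CPM), horizontal, bipolar, endothelial and pigment epithelium markers. For microglia (125 CPM, beside 41.0 and 61.3 CPM) and astrocyte markers it was the highest. The part of these cell types in the subunit levels was not tested.

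Levels per length allow subunits to be set beside each other. In CPM per kb of exon (union of all annotated exons), the saline means were 14.7 ± 3.69 for *Gria4*, 12.7 ± 0.754 for *Gria1*, 8.30 ± 2.55 for *Grin1* and 6.75 ± 2.14 for *Gria2* (SD, n = 3). *Gria3* followed at 3.78 ± 1.07 and *Grin2d* at 3.002 ± 0.827. *Grin2b* (1.32 ± 0.385), *Grin2a* (1.11 ± 0.479), *Grin3a* (0.966 ± 0.473) and *Grin2c* (0.691 ± 0.141) formed the lowest group. Neighbours in this order lay within their SDs, except that *Gria1* lay above *Grin1* and *Grin2d* above *Grin2b* by more than their SDs. In microbead libraries *Gria4* (18.2 ± 1.29) was again the highest, followed by *Gria1* (11.5 ± 0.379) and *Gria2* (11.0 ± 3.13). The order depended on the length taken: *Grin1* was first with the longest annotated transcript and *Gria2* with the coding length, since 15548 bases of exon are annotated for *Gria2* and 2649 of them code. *Grin2d* stayed sixth with each length.

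Summed over the 4 AMPA receptor genes, saline libraries were at 285, 347 and 303 CPM and microbead libraries at 390, 465 and 353 CPM. On TMM-scaled sizes the sums did not overlap (312 ± 32.0 against 402 ± 56.8 CPM, SD, n = 3 each). The nearest libraries, at 347 and 353 CPM, nearly met. Scaled by total counts alone, the second saline replicate lies above the third microbead replicate, so the sums overlap, as *Gria2* itself does. Of single tested genes, 37.8% did not overlap on TMM-scaled sizes. The exact permutation test cannot go below p = 0.1 with 3 against 3, so no call is made on a sum or share. The NMDA receptor sums were 169 ± 51.9 CPM in saline and 166 ± 32.0 CPM in microbead libraries and overlapped.

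The make-up of each pool was described by the share of each gene in the summed CPM per kb, which does not depend on library scaling. *Gria1* made up 38.3%, 29.3% and 33.9% of the AMPA pool in saline and 26.2%, 22.9% and 27.2% in microbead libraries, with no overlap. *Gria2* made up 22.5%, 20.7% and 10.9% in saline and 21.2%, 29.2% and 21.3% in microbead libraries, which overlapped. Shares of *Gria3* (9.83% ± 1.92 and 10.7% ± 0.383) and *Gria4* (38.3% ± 6.26 and 40.0% ± 2.10) overlapped too.

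In the pool of all 6 NMDA receptor genes, *Grin2d* made up 19.7% ± 1.28 in saline and 26.1% ± 2.06 in microbead libraries. *Grin2b* made up 8.71% ± 1.45 and 4.64% ± 1.41. Neither gene's shares overlapped, and those of the other NMDA receptor genes did. Shares were also taken within the 4 GluN2 genes, a smaller pool in which differences in points are larger. Overlap of shares was not set beside a value over all genes. *Grin2d* made up 50.5%, 44.1% and 53.2% of the pool in saline and 67.4%, 60.2% and 68.9% in microbead libraries. *Grin2b* made up 22.3%, 23.7% and 18.9% in saline and 9.06%, 15.8% and 10.1% in microbead libraries. Neither gene's shares overlapped between groups, and the same held with the longest transcript or the coding length as length. *Grin2a* shares overlapped (17.5% ± 3.57 and 10.3% ± 3.26), as did those of *Grin2c* (11.6% ± 2.26 and 12.5% ± 2.88). The size of a share depends on the length: with coding length *Grin2d* made up 28.5% ± 3.797 of the pool in saline and 47.1% ± 5.49 in microbead libraries.

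**Figure D3:**
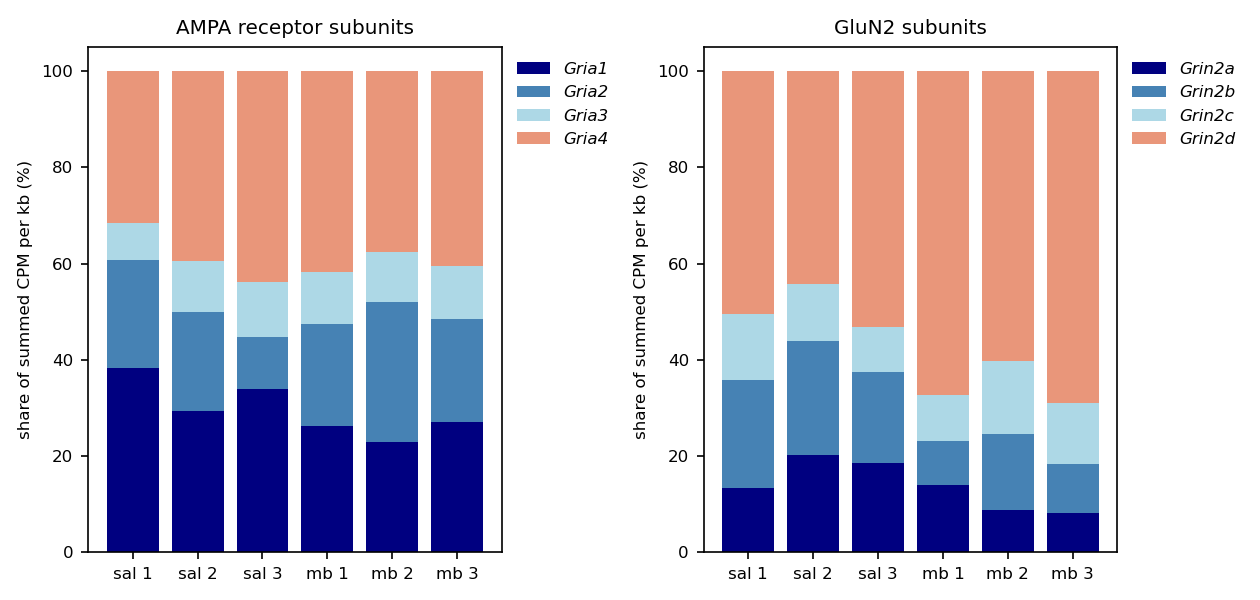
Share of each gene in the summed CPM per kb of exon of the 4 AMPA receptor subunits (left) and the 4 GluN2 subunits (right), in percent, one stacked bar per library (sal, saline; mb, microbead). *Grin2d* takes 44.1% to 53.2% of the GluN2 pool in saline and 60.2% to 68.9% in microbead libraries.

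Ratios between subunits of one receptor class use neither length nor scaling. The groups did not overlap for 3 of 6 AMPA and 6 of 15 NMDA pairs, beside 36.1% of all pairs of tested genes that had counts in every library. The ratio of *Grin2b* to *Grin2d* was 1.65, 2.01 and 1.33 in saline and 0.502, 0.980 and 0.546 in microbead libraries, so *Grin2b* had the higher CPM in every saline library and *Grin2d* in every microbead library. On the log2 scale this ratio was lower in microbead by 1.34, the mean ratios being 0.71 ± 0.297 and -0.63 ± 0.525. The ratio of *Grin1* to *Grin2d* was the most even within groups of the NMDA pairs, 3.82, 4.09 and 4.10 in saline and 3.04, 3.36 and 2.97 in microbead libraries. Here the first saline replicate was close to the other two, although its levels of both genes were the lowest of all libraries. The other NMDA pairs without overlap were *Grin1*/*Grin2a* and *Grin1*/*Grin2b*, which were higher in microbead libraries, and *Grin2a*/*Grin2d* and *Grin2b*/*Grin2c*, which were lower.

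The 3 AMPA pairs without overlap all had *Gria1* in them. The ratio of *Gria1* to *Gria2* was 0.662, 0.551 and 1.21 in saline and 0.481, 0.305 and 0.496 in microbead libraries. The ratio of *Gria1* to *Gria4* was 1.16, 0.713 and 0.739 in saline and 0.602, 0.582 and 0.643 in microbead libraries. *Gria3* and *Gria4* kept nearly the same ratio in every library, 0.380 to 0.417 in saline and 0.402 to 0.426 in microbead. Pairs that share a gene are not independent of each other, and no test was made on them.

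**Figure D4:**
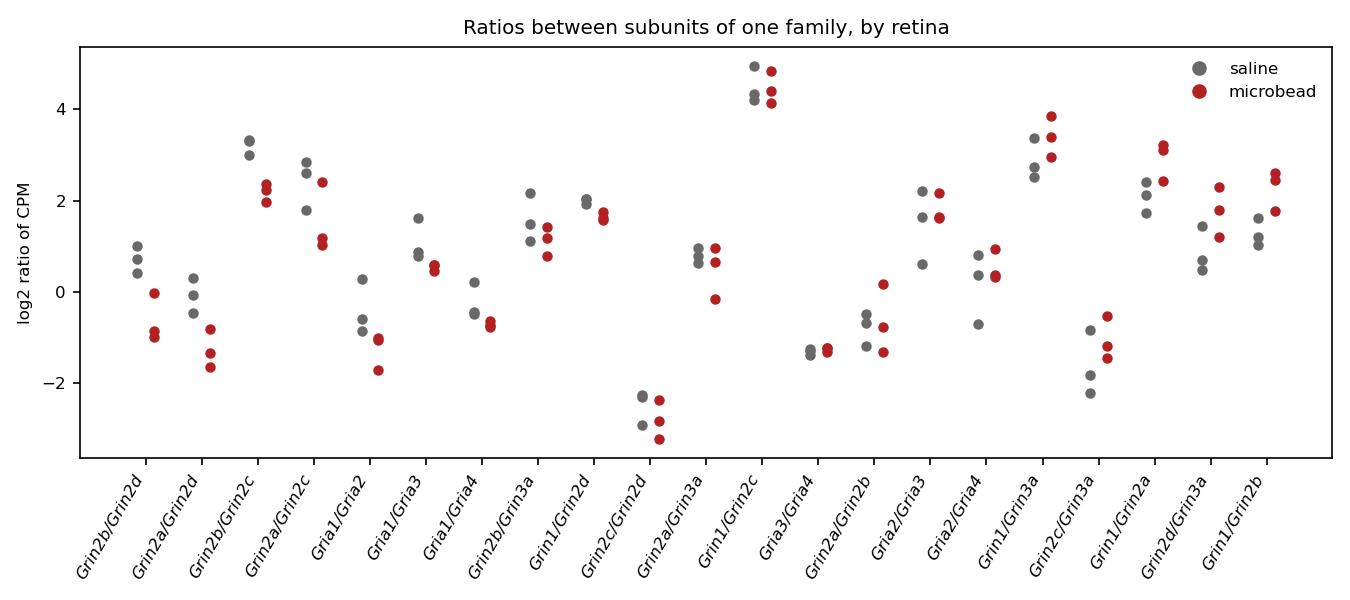
Log2 ratio of CPM for every pair of genes within the AMPA and within the NMDA receptor class, ordered by the difference between group means, one point per library (saline grey, microbead red, 3 each). *Grin2b*/*Grin2d*, at the left, is above 0 in every saline library and below 0 in every microbead library. CPM are not divided by length here, so 0 does not mark equal levels per length.

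The genes that work with these receptors were taken from lists of kainate and delta receptors, metabotropic glutamate receptors, AMPA receptor auxiliary subunits, scaffolds and kinases of the postsynaptic density, and enzymes of RNA editing and co-agonist supply. Of 68 listed genes 65 were tested, and 7 passed the threshold in edgeR, 5 higher and 2 lower in microbead libraries. This is 10.8%, close to the 12.8% of all genes. The count was 14 without the first saline replicate, 1 without the second, 2 without the third, and 4, 2 and 0 without the first, the second and the third microbead replicate. In the same order, 15.1%, 1.68%, 8.42%, 3.89%, 4.01% and 0.238% of all genes passed. The share of related genes was thus above that of all genes without the first saline or the first microbead replicate. It was also above with no filter (13 genes, beside 11.9% of all genes). DESeq2 called 12, beside 17.9% of all genes. The median log2 fold change of the 65 was -0.03, equal to that of all genes. *Cacng7* and *Cacng8*, 2 of the 16 listed auxiliary subunits, were not analysed here.

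Among 9 kainate and delta receptor genes, 1 passed. *Grik2*, which encodes the kainate receptor subunit GluK2, was higher in microbead libraries, at 10.9, 14.1 and 11.5 CPM in saline and 25.7, 26.8 and 22.5 CPM in microbead. The groups lay far apart relative to their spread, with a log2 fold change of 1.04 ± 0.20 and an edgeR adjusted p of 0.0164, which was 0.0538 without the second saline replicate and 0.0731 without the third microbead replicate. Among 8 metabotropic receptor genes 1 passed, *Grm5*, which encodes a receptor coupled to phospholipase C. It was at 28.7, 36.0 and 48.4 CPM in saline and 21.4, 22.7 and 17.3 CPM in microbead libraries, with a log2 fold change of -0.88 ± 0.23 and an edgeR adjusted p of 0.0368. The *Grm5* call held without the first saline replicate and was lost without any one of the other 5 libraries (edgeR adjusted p = 0.0805 to 0.145). It was also lost in limma-voom (adjusted p = 0.0511) and with the GC and length offset (adjusted p = 0.0695).

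Auxiliary subunits set the gating and trafficking of AMPA receptors, and 3 of the 14 tested passed, 2 higher and 1 lower. *Shisa7* and *Shisa8* encode related transmembrane proteins that bind AMPA receptors, and they moved in opposite directions. *Shisa7* was at 12.7, 20.1 and 19.4 CPM in saline and 32.8, 46.4 and 55.9 CPM in microbead libraries, with a log2 fold change of 1.37 ± 0.25 (edgeR adjusted p = 0.0159, and 0.0848 without the third microbead replicate). *Shisa8* was at 23.0, 26.0 and 30.9 CPM in saline and 13.4, 7.80 and 14.9 CPM in microbead libraries, with a log2 fold change of -1.14 ± 0.26 (edgeR adjusted p = 0.0266). The *Shisa8* call held without the first saline replicate and was lost without any one of the others (0.0516 to 0.0812). Also past the threshold was *Cpt1c*, chosen here after its values were seen, an endoplasmic reticulum protein that binds AMPA receptor subunits, with a log2 fold change of 0.70 ± 0.18 (edgeR adjusted p = 0.0355). It too passed without the first saline replicate (0.0328) and was lost without any one of the others (0.0585 to 0.125).

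Of the 28 scaffold and kinase genes, 2 passed, both higher. *Dlg4* encodes PSD-95, a scaffold that binds NMDA receptors, and whole-retina counts do not show in which cells its mRNA differed. *Dlg4* was at 653, 615 and 620 CPM in saline and 829, 1052 and 1186 CPM in microbead libraries, with a log2 fold change of 0.70 ± 0.19 (edgeR adjusted p = 0.0400). The *Dlg4* call held without the first microbead replicate and was lost without any one of the others (0.0550 to 0.151).

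None of the 6 editing and co-agonist genes tested passed, and 2 had an unadjusted p-value under 0.05. *Adarb1* encodes the deaminase that edits the *Gria2* codon shown above. It was at 188, 340 and 344 CPM in saline and 131, 205 and 205 CPM in microbead libraries. The first saline replicate lay within the microbead range, and the log2 fold change was -0.69 ± 0.27 (edgeR adjusted p = 0.117, and 0.0293 without that replicate). Without any one of the other libraries the edgeR adjusted p was 0.176 to 0.303, and with no filter it was 0.0187. *Adar*, which encodes a second deaminase, had a log2 fold change of -0.69 ± 0.24 (edgeR adjusted p = 0.0818, and 0.0499 in DESeq2). For *Adar* the edgeR adjusted p was 0.0559 to 0.215 on leaving out each library and 0.0142 with no filter.

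**Figure D5:**
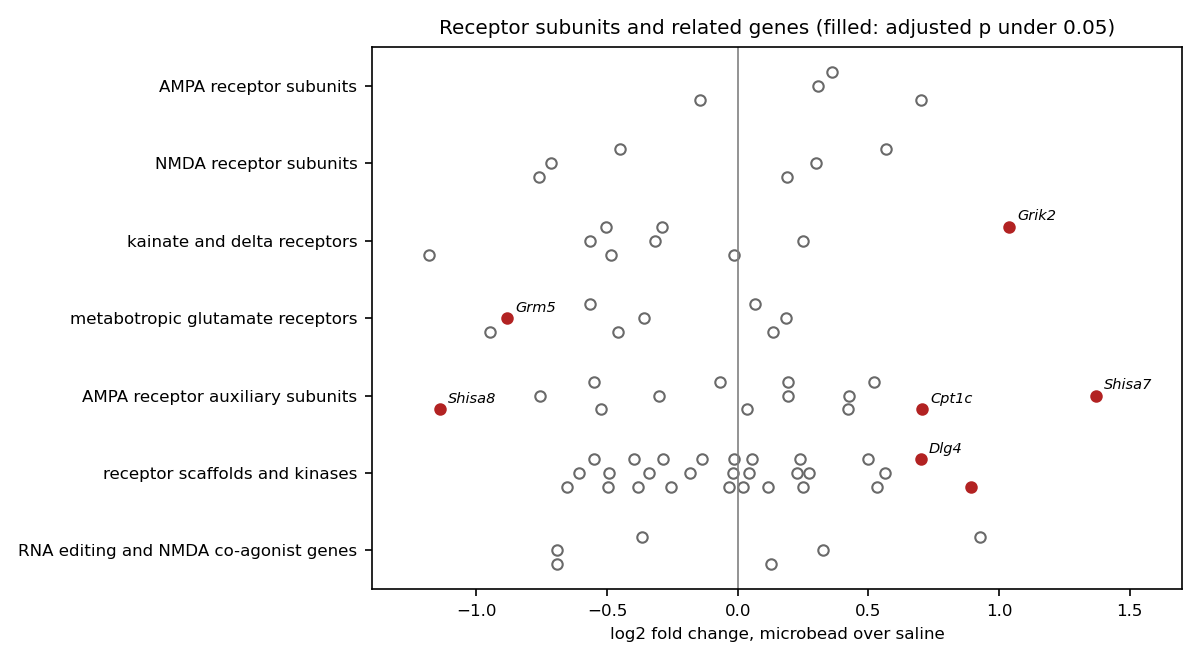
Log2 fold change, microbead over saline, of the receptor subunits and of each tested gene of the related lists (edgeR, n = 3 each), with filled red points for an adjusted p-value under 0.05. Points are offset vertically for legibility. In the related lists 7 genes pass, and none of the 10 subunits does.

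The genes most like *Gria2* over the 6 libraries were sought among the 10351 genes that averaged 10 CPM or more, by the root mean square difference of their centred log2 CPM. The nearest were *Kdm5d*, *Pde7a*, *Srsf11*, *Nsmaf* and *Cd2ap*, at 0.0947 to 0.144. Each was lowest in the third saline replicate and highest in the second microbead replicate, as *Gria2* was, which follows from choosing them by this profile. *Srsf11*, a splicing factor, was at 145, 130 and 83.1 CPM in saline and 185, 232 and 163 CPM in microbead libraries. The nearest to *Grin1* were *Ankrd34a*, *Hdac11*, *Sept5*, *Hpca* and *Barhl2*, at 0.0522 to 0.0886. *Hpca*, which encodes the neuronal calcium sensor hippocalcin, was at 65.4, 101 and 123 CPM in saline and 107, 99.4 and 140 CPM in microbead libraries. Like *Grin1* it was lowest in the first saline replicate, which again follows from the choice.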

How the data were processed

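Whole-retina poly(A) RNA was sequenced as 100-base paired reads from a stranded kit. The authors aligned reads with STAR 2.5.3a to GRCm38.p5 with GENCODE annotation, counted them per gene with featureCounts 1.15.2, and deposited raw counts for the 6 libraries. The strand setting of the counting is not given in the sources used here. Columns of the authors' own DESeq2 1.14 comparison, deposited as a mean signal, a log2 fold change, a linear ratio, p-values and a mark of calls, were not used.

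Groups came from the labels. Libraries of a group differed by far more than counting noise (chi-square per degree of freedom of at least 21.96). The filterByExpr filter (count of 10, total of 15) was applied, and groups were compared with edgeR 4.0.16 (R 4.3.3) by its two-sided quasi-likelihood test on TMM-scaled sizes. Adjusted p-values are Benjamini-Hochberg values over the 17707 tested genes, with 0.05 as threshold. The code was tested on simulated data. Totals were 13574949 to 46481382 counts per library. CPM use the TMM-scaled sizes. Lengths, positions and coding sequences were taken from GENCODE vM21. For *Dlg2*, which has more than 1 record, the one with most counts was used.

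The subunits and lists were chosen with earlier results of these data known. Named genes were all subunits, the 2 largest changes past the threshold in each related list (or the smallest p-value where none passed), and the 5 genes most like *Gria2* and *Grin1*. Some items that this rule would name are not reported here. *Cpt1c* and *Adarb1*, and the coding length as a length, were chosen after seeing the data. Alternatives were DESeq2 1.42.0 and limma-voom (limma 3.58.1) as tests, a replicate block, upper-quartile and RLE scaling, a GC and length offset (splines with 5 degrees of freedom), filters of none and of 10 counts per library, 0.01 as threshold, and leaving out each library.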

Additional observations from a re-analysis of the deposited data

How the results depend on the processing

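The number of receptor subunits past the threshold, 0, was 3 with no filter on low counts (*Gria2*, *Grin2a* and *Grin2b*), 2 with the GC and length offset (*Gria2* and *Grin2d*), and 0 to 2 on leaving out each library. It was 0 under the other alternatives. Over the alternatives other than leaving out a library, the edgeR, DESeq2 or limma adjusted p ranged from 0.0122 to 0.118 for *Gria2* (0.118 to 0.314 on leaving out each library), from 0.0153 to 0.130 for *Grin2b*, from 0.0486 to 0.480 for *Grin2a* and from 0.00903 to 0.180 for *Grin2d*. The subunits kept the sign of their log2 fold change except in 3 cases: *Gria1* (0.0038 with the GC and length offset) and *Grin1* (-0.038 without the first saline replicate and -0.02 without the third microbead replicate, in a leave-one-out range of -0.038 to 0.39). The cause was not tested. Over all genes the count of 2261 was 3720 with no filter, 3621 in DESeq2 and 87 at an adjusted p under 0.01, and 46 to 2621 on leaving out each library, with the fewest without the third microbead replicate. Of the related genes the count of 7 was 13 with no filter, 12 in DESeq2 and 0 at an adjusted p under 0.01, and 0 to 14 on leaving out each library. Replicate numbers did not pair the libraries (correlations of deviations -0.04, 0.14 and 0.01, with 2 of 6 libraries closest to their own number); with the replicate block the counts were 905 of all genes, 3 of the related genes and 0 of the subunits. The block ended the calls of *Grm5* (edgeR adjusted p = 0.0793), *Dlg4* (0.0761) and *Cpt1c* (0.0695), among others. Of the 10 ranks of level per length, 4 were kept with the longest annotated transcript and 7 with the coding length. The difference in the *Gria2* share of the AMPA pool, 5.86 points, was 2.30 to 8.09 points on leaving out each library. Counts per library were lowest for *Grin2c*, with at least 52, and *Grin3a* had the widest 95% interval of the 10 subunits.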

Other observations

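A pair of genes with related names are not in the set of 10. *Grin3b*, which encodes the second GluN3 subunit, was near the lower end of detection, with 54, 44 and 18 counts in saline and 23, 13 and 43 counts in microbead libraries, and the groups overlapped (log2 fold change 0.78 ± 0.58, edgeR adjusted p = 0.391). *Grina*, named for an NMDA receptor-associated protein of the TMBIM family that is not a channel subunit, was at 610 ± 15.0 CPM in saline and 716 ± 91.9 CPM in microbead libraries (SD, n = 3 each), with a log2 fold change of 0.23 ± 0.17 (edgeR adjusted p = 0.384). The *Grina* groups did not overlap, as was so for 37.8% of all genes tested. *Grin1os*, annotated on the opposite strand of *Grin1* and overlapping its exons over 1307 bases, had 108, 161 and 10 counts in saline and 25, 45 and 53 counts in microbead libraries. The third saline replicate, highest of its group for *Grin1*, was lowest for *Grin1os*.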
